A study of Mus musculus with 6 samples.

Results

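The comparison described here set the 2 arrays of mouse embryonic stem cells that received Ncl siRNA #2 against the 2 arrays that received Ncl siRNA #1. Every probe set that carries exactly 1 gene symbol was a member, which gave 34958 of 45101 probe sets and 18194 genes. All cells were E14Tg2a, a mouse embryonic stem cell line, all were transfected with siRNA, and all samples carry the time 96 h. The siRNAs #1 and #2 are a pair of Invitrogen duplexes against Ncl, and a further 2 arrays received a duplex that targets firefly luciferase, a gene these cells lack. The labels give no further treatment, and no source used here states whether the 2 arrays of a group came from separate cultures. The p-values therefore measure only the spread between these arrays, which the fit takes for each gene largely from other genes of like signal. The number of arrays limits the precision. An exact permutation test of 2 arrays against 2 cannot go below p = 0.333 (two-sided), so single genes were tested only in the fit across all genes. Signals are the deposited log2 values, and each difference is siRNA #2 minus siRNA #1 on the log2 scale with its standard error (SE). A gene was called at an adjusted p under 0.05 (limma, Benjamini-Hochberg over 18194 genes).

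Nucleolin, the product of Ncl, is an abundant protein of the nucleolus, where it takes part in ribosomal RNA transcription and processing. In mouse embryonic stem cells nucleolin and the LINE1 RNA are known to help silence Dux, a transcription factor that switches on genes of the 2-cell embryo. A pair of siRNAs against 1 gene is used to tell effects that both share from effects that only one has, since each duplex can also act on other transcripts.

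Leading markers of embryonic stem cells were bright in all 4 Ncl siRNA arrays. The transcription factor Pou5f1, also called Oct4, read between 13 and 13.32, and Esrrb, the dimmest of 10 such markers, between 9.47 and 10.02, above the upper quartile of every array (8.06 to 8.25). Array medians lay between 5.73 and 5.79. Replicate 1 of siRNA #1 stood apart, with a wider spread of signals (SD 2.61 against 2.53 to 2.56 in the other Ncl siRNA arrays). Its median absolute difference from replicate 2 of siRNA #1 was 0.16, whereas replicate 2 of siRNA #1 differed from each siRNA #2 array by 0.12 and the siRNA #2 arrays differed from each other by 0.09. The bacterial poly-A RNAs, which are added before labelling, averaged 8.86 and 8.57 with siRNA #1 and 8.46 and 8.39 with siRNA #2, a difference of -0.29. Their part in the results was not tested. Probe sets for 18S ribosomal RNA differed by 0.03 and the 3′ minus 5′ signals of Actb and Gapdh, a sign of RNA quality, by -0.03 and 0.03.

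Lung transcripts that mark the control siRNA arrays summed to less in all 4 arrays compared here. Scgb1a1, a secretory protein of airway cells, read 3.29 and 3.69 with siRNA #1, 3.80 and 4.01 with siRNA #2 and 12.96 in both control arrays. None of 16 measured lung markers was called, 6 of them lay above the median signal in all 4 arrays, and the log2 of their summed signal was 10.61 and 10.52 with siRNA #1 and 10.45 and 10.54 with siRNA #2, against 13.73 and 13.80 in the control arrays. None of 15 markers of leukocytes and blood was called, and their log2 sum lay between 11.55 and 11.63 in the 4 arrays. Control levels are given below only as a description.

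The question put first was whether both siRNAs lowered Ncl alike. On the brightest of its 5 probe sets, Ncl read 13.77 and 13.74 with siRNA #1, 13.77 and 13.72 with siRNA #2 and 14.21 in both control arrays. The siRNAs overlapped and the difference was -0.01 (SE 0.04, adjusted p = 0.957 over all probe sets, 95% confidence interval -0.10 to 0.09). Its level was 72.9% of control with siRNA #1 and 72.5% with siRNA #2. The other 4 probe sets kept less, from 37.2% to 62.9% with siRNA #1 and from 33.6% to 69% with siRNA #2. On the other 4 probe sets the differences were -0.15, 0.09, 0.15 and 0.13, with adjusted p between 0.382 and 0.681, and the widest interval, on the dimmest probe set, ran from -0.21 to 0.51. No probe set showed a difference in Ncl past the threshold, and the signs were mixed. Leaving out replicate 2 of siRNA #1 took a pair of them past it, at -0.26 (adjusted p = 0.00503, or 0.0205 with the spread of 5 arrays) and 0.22 (0.0146 or 0.043). Npm1, encoding the nucleolar protein nucleophosmin, differed by 0.02 (SE 0.04, adjusted p = 0.796), and Fbl, encoding fibrillarin, which methylates ribosomal RNA, by -0.11 (SE 0.06, adjusted p = 0.216). Cdkn1a, the p21 cell cycle inhibitor and a p53 target, read 11.55 and 11.44 with siRNA #1, 11.49 and 11.59 with siRNA #2 and 9.24 and 9.05 in the control arrays. The siRNAs did not differ for it past the threshold (0.04, SE 0.06, adjusted p = 0.717).

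Over all genes, 1589 of 18194 were called (8.73%), of which 490 were higher with siRNA #2 (2.69%) and 1099 lower (6.04%). Most of these differences were small, as 1073 of the 1589 lay under 0.5 on the log2 scale, among them 826 of those lower with siRNA #2. Differences of at least 2-fold were reached by 58 called genes (0.319%), 40 of them higher (0.22%) and 18 lower (0.0989%). The 4 arrays did not overlap between the siRNAs for 54.2% of all genes. The number of small differences depended on the variance model and on single arrays. With no trend of the prior variance 67 genes were called higher and 45 lower, and leaving out replicate 1 or 2 of siRNA #1 or replicate 1 or 2 of siRNA #2, with the spread taken from the 5 remaining arrays, gave 737, 4281, 463 and 503 calls in turn. Counts with an array left out are given on that basis below, except where the closing part on processing says otherwise. Quantile normalization turned the split to 634 higher and 574 lower. The 58 genes of at least 2-fold were steadier, since all 58 were still called without replicate 1 of siRNA #1 and 52 with no trend. The median difference of all genes was -0.03 and moved with signal. It ran from 0.08 in the dimmest of 4 equal bins to -0.13 and -0.08 in the 2 brightest. Quantile normalization brought these values to 0.02, -0.02 and -0.03. From the dimmest bin to the brightest, 28, 73, 173 and 216 genes were called higher and 9, 105, 446 and 539 lower. Counts of list members are to be read beside the shares of all genes, 2.69% higher and 6.04% lower, which are below those of bright genes.

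**Figure D1:**
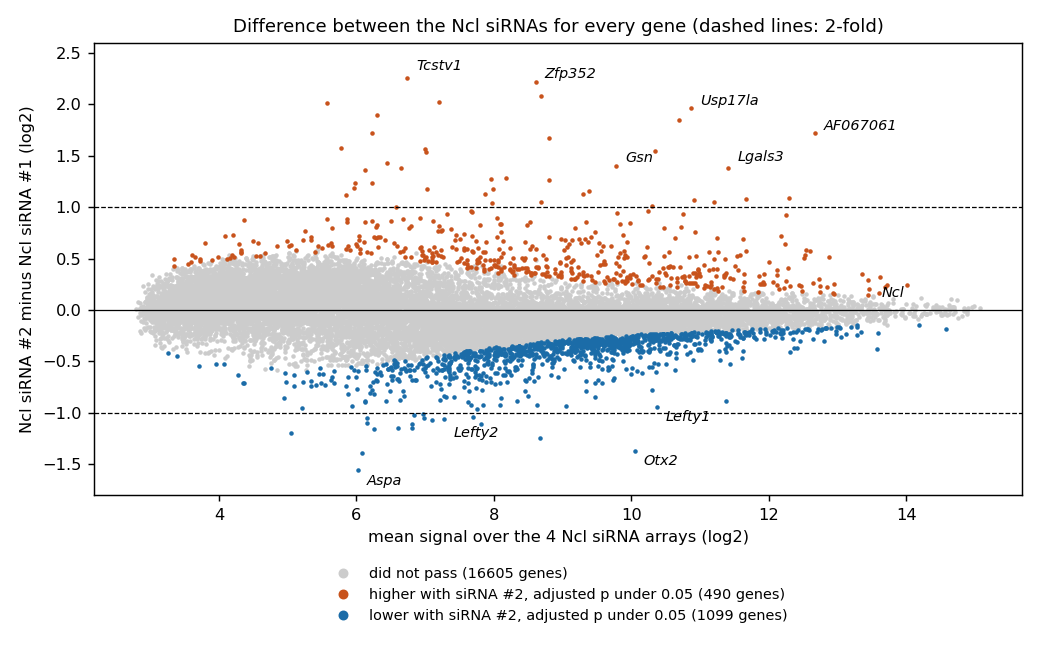
Difference between Ncl siRNA #2 and Ncl siRNA #1 (log2, vertical axis) against mean signal over the 4 Ncl siRNA arrays (log2, horizontal axis), 1 point per gene, coloured by call; dashed lines mark 2-fold. The 40 called genes above the upper line reach 2.26 (Tcstv1), the 18 below the lower line reach -1.56 (Aspa), and Ncl lies at -0.01.

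Genes of the 2-cell embryo gave the largest differences, with siRNA #2 higher. These genes are transcribed for a short time when the embryonic genome is first activated, and again in rare stem cells that resemble that stage. Of 16 measured genes on the list, 11 were higher with siRNA #2 (68.8% beside 2.69% of all genes), 1 was lower (6.25% beside 6.04%) and 4 did not pass. The list median was 1.78 against -0.03 for all genes. Under no trend the count stayed at 11 higher, with 0 lower. Leaving out each array in turn, with the spread of the 5 remaining arrays, gave 10 or 11 higher. In bulk RNA, more cells in such a state and more RNA per cell cannot be told apart.

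Tcstv1, of a gene family named for transcripts of 2-cell embryos, read 5.57 and 5.65 with siRNA #1, 7.77 and 7.96 with siRNA #2 and 4.66 and 4.84 in the control arrays. Its difference of 2.26 (SE 0.16, adjusted p = 8.75e-13), or 4.78-fold, was the largest of all genes. Its relative Tcstv3 read 6.24 and 6.14 against 8.11 and 8.30, a difference of 2.02 (SE 0.14, adjusted p = 1.74e-12). In both genes each siRNA #2 array lay above each siRNA #1 array, and both control arrays lay below all of them.

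Zfp352, a zinc finger gene used as a marker of this state, read 7.56 and 7.43 with siRNA #1 and 9.61 and 9.81 with siRNA #2, and 5.65 and 5.49 in the control arrays. The difference was 2.22 (SE 0.11, adjusted p = 4.78e-17), and its other probe set pointed the same way. Usp17la, of a repeated family of ubiquitin-specific proteases, read 9.86 and 9.92 against 11.83 and 11.87, a difference of 1.96 (SE 0.07, adjusted p = 4.33e-21). AF067061, known by the name of its sequence record, read 11.72 and 11.90 against 13.46 and 13.61 (1.72, SE 0.06, adjusted p = 4.33e-21). For these 3 genes, too, the siRNAs did not overlap and the control arrays were lowest.

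Tdpoz1, of a family of speckle-type POZ genes, read 4.48 and 4.66 with siRNA #1 and 6.63 and 6.52 with siRNA #2, and control arrays gave 4.04 and 4.57 (2.01, SE 0.18, adjusted p = 4.21e-10). Spz1, a leucine zipper factor of spermatogenesis, read 5.57 and 5.13 against 7.24 and 7.28, with control arrays at 4.92 and 4.46 (1.90, SE 0.17, adjusted p = 8.62e-10). The siRNA #2 arrays of both stood well clear of all other arrays, whereas siRNA #1 overlapped the control arrays for Tdpoz1 but not for Spz1. Sp110, a nuclear body protein, read 6.18 and 6.26 against 7.77 and 7.80, with control arrays at 5.08 and 5.29 (1.57, SE 0.15). AF067063, which is not on the list but lies next to Tcstv1, read 4.94 and 5.04 against 6.53 and 6.61, with control arrays at 4.61 and 4.08 (1.58, SE 0.17).

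The remaining called members were BC080696 (2.08, SE 0.10), Gm20767 (1.85, SE 0.07) and Arg2, the mitochondrial arginase (0.76, SE 0.12). Duxf3, the mouse Dux gene that acts upstream of the others, read 4.80 and 4.68 with siRNA #1 and 5.20 and 5.33 with siRNA #2. That difference of 0.52 (SE 0.17) missed the threshold (adjusted p = 0.0557), although the arrays did not overlap. Eif1a (-0.01), Calcoco2 (-0.03) and Ddit4l (0.03) did not pass. A probe set that Eif1a shares with Gm4027 and BB287469, and which was not counted here, read 11.12 and 11.28 against 12.43 and 12.48. Its difference was 1.26 (SE 0.07, limma adjusted p = 3.44e-09 over all probe sets). Zfp809, which silences endogenous retroviruses, was the member lower with siRNA #2 (-0.25, SE 0.07, adjusted p = 0.0209), a call lost with no trend.

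Probe sets that cannot be given to 1 gene included members of the same families. Of 932 probe sets with several symbols, 20 were higher (2.15%) and 19 lower (2.04%), adjusted over all 45101 probe sets, and of 9211 with no symbol 38 were higher (0.413%) and 37 lower (0.402%). A probe set of Zscan4a, Zscan4c, Zscan4d, Zscan4f and 2 provisional symbols, zinc finger genes that define the 2-cell-like state, read 11.93 and 12.00 with siRNA #1 and 13.14 and 13.22 with siRNA #2, after 6.61 and 6.75 in the control arrays. Its difference was 1.21 (SE 0.05, adjusted p = 6.14e-10). A probe set shared by Gm4340, Gm6763 and 5 further symbols read 12.86 and 12.89 against 14.28 and 14.37 (1.45, SE 0.05). A probe set of Sprr2a1, Sprr2a2 and Sprr2a3, small proline-rich proteins of epithelia, had the largest difference among them, from 8.18 and 8.10 to 10.10 and 10.03 (1.92, SE 0.10). In all of these probe sets the siRNA #2 arrays were the highest.

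Several of these genes have similar bases just ahead of their start sites, and they are shown because the genes differ in the same direction. Of the 11 called members, 6 had an entry in the RefSeq promoter table (GRCm38.p6). The 250 bases upstream of the start are printed in the direction of transcription for the 4 of these 6 that hold both CTTTAAT and TATAAG, on either strand, with matches in capitals. The coordinates are chr4:90218570-90218819 on the plus strand for Zfp352, chr1:85603892-85604141 on the minus strand for 1 of the starts of Sp110, chr13:120262845-120263094 on the plus strand for AF067061 and chr3:93676284-93676533 on the minus strand for Tdpoz1.
Zfp352: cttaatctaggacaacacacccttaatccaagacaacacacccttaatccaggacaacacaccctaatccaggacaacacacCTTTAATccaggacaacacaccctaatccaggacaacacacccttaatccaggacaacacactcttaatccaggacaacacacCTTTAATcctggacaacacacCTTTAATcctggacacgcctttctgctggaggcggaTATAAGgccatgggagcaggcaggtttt
Sp110: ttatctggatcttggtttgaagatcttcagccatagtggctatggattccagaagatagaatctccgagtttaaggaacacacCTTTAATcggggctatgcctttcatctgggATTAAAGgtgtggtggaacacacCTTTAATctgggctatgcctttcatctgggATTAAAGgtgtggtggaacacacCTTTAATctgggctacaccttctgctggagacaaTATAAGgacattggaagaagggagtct
AF067061: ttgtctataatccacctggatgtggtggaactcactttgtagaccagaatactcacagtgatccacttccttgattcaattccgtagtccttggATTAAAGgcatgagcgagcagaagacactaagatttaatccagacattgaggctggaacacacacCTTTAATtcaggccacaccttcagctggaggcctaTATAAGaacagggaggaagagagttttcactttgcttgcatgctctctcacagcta
Tdpoz1: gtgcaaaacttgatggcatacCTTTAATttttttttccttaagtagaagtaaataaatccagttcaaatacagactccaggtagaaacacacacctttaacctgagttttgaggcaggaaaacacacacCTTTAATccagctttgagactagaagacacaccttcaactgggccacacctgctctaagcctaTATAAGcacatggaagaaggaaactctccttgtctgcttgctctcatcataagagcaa
The letters of both motifs were chosen after these sequences were read. CTTTAAT was found in 3.33% of 32851 promoters of this length, TATAAG in 6.65% and both in 0.338%. Zfp352 held 3 copies of CTTTAAT, Sp110 5, and AF067061 and Tdpoz1 2 each, and the TATAAG of Zfp352 began at position -28 from the start, that of Sp110 at -27, that of AF067061 at -56 and that of Tdpoz1 at -58. The promoters of Usp17la and Spz1 held neither motif, and the second start of Sp110 held none. A match is only a description of the letters in the window.

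Some of the genes with large differences lie side by side on a chromosome. In the order of the RefSeq annotation, AF067063, Tcstv1, Gm20767 and AF067061 follow each other on chromosome 13, at differences of 1.58, 2.26, 1.85 and 1.72. Among 110 placed genes called with a difference of at least 0.8, there were 8 adjacent pairs, 7 of them in the same direction. The other pairs in the same direction were Krt8 and Krt18 on chromosome 15, Hspa1b and Hspa1a on chromosome 17, Cryab and Hspb2 on chromosome 9, and Lefty2 and Lefty1 on chromosome 1. Spz1 (1.90) and its neighbour Serinc5 (-0.92) differed in opposite directions. Neighbours that arose as copies of each other can share probe sequences.

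**Figure D2:**
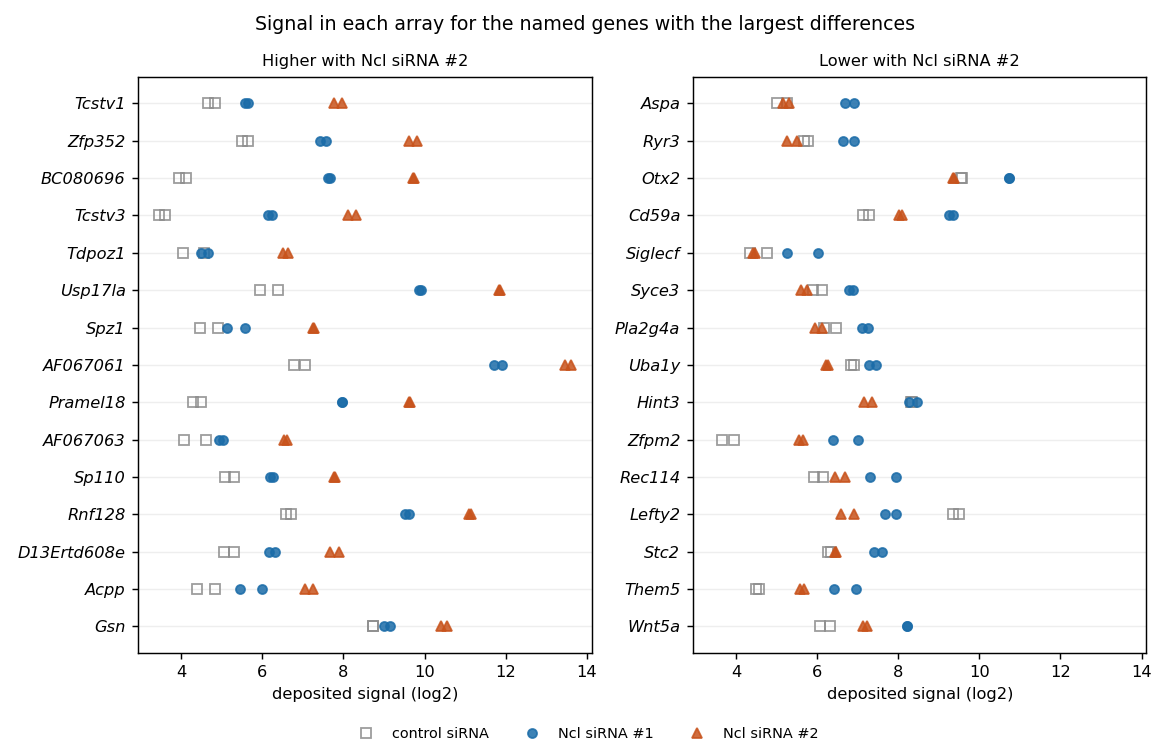
Deposited signal (log2, horizontal axis) in each of the 6 arrays for the 15 named genes with the largest differences in each direction; open squares are control siRNA, circles Ncl siRNA #1 and triangles Ncl siRNA #2. In the left panel the siRNA #2 arrays lie to the right of all others, and in the right panel they lie to the left of the siRNA #1 arrays, as for Otx2 at 9.34 and 9.38 against 10.73 and 10.74.

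Outside the 2-cell list, the genes furthest above siRNA #1 belonged to several kinds. Pramel18, of the Prame-like family of oocytes and early embryos, read 7.96 and 7.97 with siRNA #1 and 9.62 and 9.65 with siRNA #2 (1.67, SE 0.10, adjusted p = 9.78e-15). The replicates lay within 0.03 of each other on both sides. Of 13 measured Prame-like genes 1 was higher and 1 lower, 7.69% each, beside 2.69% and 6.04% of all genes. The lower one was Pramel6 (-0.56, SE 0.18, adjusted p = 0.0420). Pramel6 took the opposite sign, 0.33, without the _x_at and _s_at probe sets, which can read several transcripts. Rnf128, a ubiquitin ligase of endosomes, read 9.52 and 9.61 against 11.14 and 11.10 (1.55, SE 0.07, adjusted p = 4.55e-17). Gsn, gelsolin, which severs actin filaments, read 9.15 and 9.01 against 10.55 and 10.41, with control arrays at 8.73 and 8.73 (1.40, SE 0.08, adjusted p = 1.95e-14). All 5 other probe sets of Gsn pointed the same way. Acpp, a prostatic acid phosphatase, was dimmer (1.43, SE 0.18, adjusted p = 4.98e-07), and D13Ertd608e differed by 1.54 (SE 0.15, adjusted p = 3.54e-09). B2m, the light chain of class I major histocompatibility molecules, read 9.58 and 9.53 against 10.43 and 10.37, with control arrays at 9.82 and 9.95 (0.85, SE 0.08, adjusted p = 1.01e-09). It was chosen after its values were seen.

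Trophectoderm, the outer layer of the blastocyst that forms the placenta, had the next highest median of the lists. Of 29 measured genes 12 were higher with siRNA #2 (41.4% beside 2.69% of all genes), none was lower and 17 did not pass. The list median was 0.23. With no trend 5 remained called higher, and with each array left out there were 8 (without replicate 1 of siRNA #2) to 13. Markers of leukocytes and blood, endothelium and heart muscle had medians of -0.05, -0.05 and 0.02 beside it, and the lung markers one of 0.11, with 11 of 16 above 0 and none called. Their part in the result was not tested.

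Among transcription factors of this lineage, Cdx2 read 7.67 and 7.67 with siRNA #1, 8.55 and 8.47 with siRNA #2 and 6.60 and 5.98 in the control arrays. Its difference was 0.84 (SE 0.12, adjusted p = 3.41e-06), or 1.79-fold. Hand1, which acts in giant cells and mesoderm, read 6.56 and 7.03 against 7.73 and 7.49 (0.82, SE 0.16, adjusted p = 0.000495), a call lost with no trend or without replicate 1 of siRNA #2. Gata3 read 7.51 and 7.11 against 7.91 and 7.90 (0.59, SE 0.14, adjusted p = 0.00434), and its call was lost when all 6 arrays gave the spread, and when any of the 4 Ncl siRNA arrays was left out with the spread of the 5 remaining arrays. Eomes, another factor of this lineage, overlapped between the siRNAs at 9.16 and 9.01 against 9.01 and 9.03 (-0.07, SE 0.09, adjusted p = 0.713). Cdx2 was higher with siRNA #2 under all 15 alternatives, and Eomes was within the spread of the replicates.

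Keratins of simple epithelia form filaments from a type I and a type II partner. Krt18 read 11.18 and 11.06 with siRNA #1, 12.20 and 12.20 with siRNA #2 and 7.92 and 7.98 in the control arrays (1.08, SE 0.06, adjusted p = 3.78e-15). Its partner Krt8 read 11.83 and 11.76 against 12.70 and 12.72 (0.92, SE 0.06, adjusted p = 2.43e-14), and Krt7 7.84 and 7.53 against 8.54 and 8.51 (0.84, SE 0.12, adjusted p = 7.02e-06). Krt19, at 10.43 and 10.21 against 10.31 and 10.52, overlapped (0.10, SE 0.08, adjusted p = 0.492). Of 33 epithelial junction and keratin genes, 9 were higher (27.3% beside 2.69% of all genes) and 1 was lower (3.03% beside 6.04%). The list median was 0.14, and with no trend 3 were higher. Desmoplakin, encoded by Dsp, which ties keratin filaments to desmosomes, read 10.24 and 10.32 against 11.34 and 11.08 (0.93, SE 0.08, adjusted p = 5.44e-11). The desmosomal cadherin Dsc2 (0.90, SE 0.15, a call lost without replicate 1 of either siRNA) and the claudins Cldn4 (0.52, SE 0.07) and Cldn6 (0.51, SE 0.08) of tight junctions were higher too. Grhl2, a regulator of epithelial genes, was the member that was lower (-0.28), and Cdh1, E-cadherin, differed by 0.10 and did not pass.

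Galectins bind sugars, and annexins and S100 proteins act at membranes with calcium. The galectin Lgals3 read 10.83 and 10.61 with siRNA #1 against 12.08 and 12.12 with siRNA #2, and control arrays gave 12.20 and 12.29. The siRNA #2 arrays lay close to the control arrays and the siRNA #1 arrays more than 1 log2 unit below both (1.38, SE 0.07, adjusted p = 5.58e-17). The control arrays hold lung transcripts, and the part of these in the control level of Lgals3 was not tested. Of 21 genes of annexins, S100 proteins and galectins, 8 were higher (38.1% beside 2.69% of all genes) and 1 lower (4.76% beside 6.04%). The list median was 0.22, with 2 higher under no trend. Anxa2, which links membranes to actin, read 9.86 and 9.74 against 10.74 and 10.88 (1.01, SE 0.08, adjusted p = 9.47e-12). Its 3 probe sets disagreed, and their mean gave 0.39 with adjusted p = 0.105. Anxa5 (0.64, SE 0.09), Anxa3 (0.53, SE 0.07), Lgals1 (0.52, SE 0.05) and S100a6 (0.29, SE 0.05) were higher, whereas Anxa4 was lower (-0.37, SE 0.12). S100a10, the partner of Anxa2, differed by 0.01 and did not pass.

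**Figure D3:**
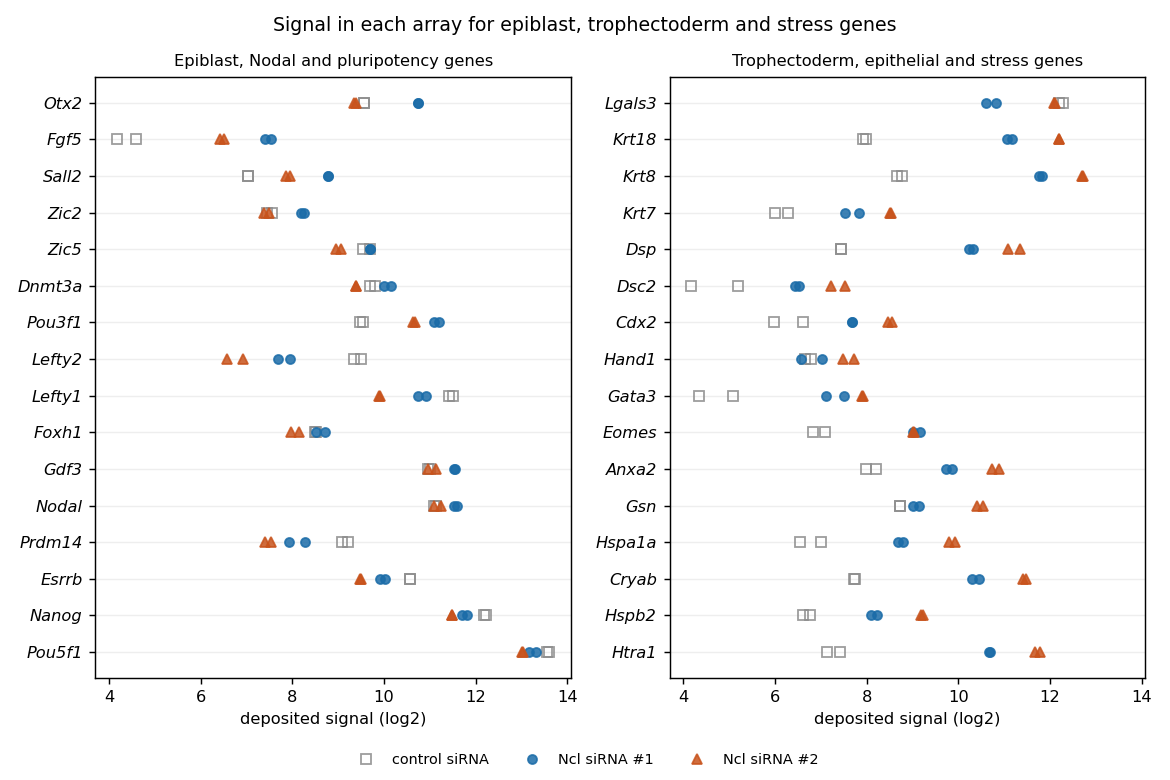
Deposited signal (log2, horizontal axis) in each of the 6 arrays for genes of the epiblast, Nodal signalling and pluripotency (left) and of trophectoderm, epithelia and the stress response (right); open squares are control siRNA, circles Ncl siRNA #1 and triangles Ncl siRNA #2. Triangles lie left of circles for the left panel and right of circles on the right except for Eomes, whose values overlap between 9.01 and 9.16.

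Heat shock genes differed in a few members only. Of 34 measured heat shock proteins and chaperones, 5 were higher (14.7% beside 2.69% of all genes) and none lower. The list median was 0.02, near that of all genes. Hspa1a, an inducible HSP70, read 8.68 and 8.79 with siRNA #1, 9.80 and 9.92 with siRNA #2 and 6.54 and 7.01 in the control arrays (1.13, SE 0.09, adjusted p = 3.59e-11). Hspa1b, the neighbouring copy, read 10.23 and 10.39 against 11.24 and 11 (0.81, SE 0.08, adjusted p = 1.75e-09), a call lost with no trend. Cryab, the small heat shock protein alpha-B-crystallin, read 10.29 and 10.46 against 11.41 and 11.48 (1.07, SE 0.07, adjusted p = 2.27e-13). Its neighbour Hspb2 read 8.23 and 8.09 against 9.18 and 9.24 (1.05, SE 0.10, adjusted p = 3.39e-09). In these 4 genes the arrays of the siRNAs did not overlap and the control arrays were lowest. Hspb8, which works with Bag3 in protein clearance, differed by 0.37 (SE 0.10). Other stress-inducible members did not pass, among them Hspb1 (0.05, SE 0.04), Dnajb1 (0.03, SE 0.06), Hsph1 (0.02, SE 0.06) and Bag3 (0.01, SE 0.12).

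The promoters of both HSP70 genes are shown because they are nearly the same, as are the genes, so that their probe sets may read both. Over 250 bases upstream of the start 247 were identical (98.8%). Both lie on the minus strand of GRCm38.p6 in RefSeq, Hspa1a at chr17:34972157-34972406 and Hspa1b at chr17:34959239-34959488. Capitals mark GAANNTTC, the inverted pair of units in a heat shock element, searched on both strands.
Hspa1a: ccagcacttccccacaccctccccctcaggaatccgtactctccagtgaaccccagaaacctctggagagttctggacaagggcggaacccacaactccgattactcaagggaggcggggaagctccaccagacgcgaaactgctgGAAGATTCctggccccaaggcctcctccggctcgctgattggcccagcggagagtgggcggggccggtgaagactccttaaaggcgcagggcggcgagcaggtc
Hspa1b: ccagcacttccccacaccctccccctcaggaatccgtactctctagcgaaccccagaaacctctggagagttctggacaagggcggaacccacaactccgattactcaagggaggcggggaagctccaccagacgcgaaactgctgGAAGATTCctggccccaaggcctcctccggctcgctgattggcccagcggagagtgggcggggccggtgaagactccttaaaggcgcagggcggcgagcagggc
This motif stood once in each, at position -104 from the start, and in 6.69% of all 32851 promoters. Hspb8, the third called member with an entry, held no match in this window.

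Genes of adhesion, proteolysis and the actin cytoskeleton moved in both directions. Among 20 genes of the plasminogen system and secreted proteases, 7 were higher (35% beside 2.69% of all genes) and 1 lower (5% beside 6.04%). The list median was 0.16. With no trend 2 were higher, and fewer than 7 were higher without either array of siRNA #2. Htra1, a secreted serine protease, read 10.67 and 10.69 with siRNA #1 and 11.67 and 11.78 with siRNA #2 (1.05, SE 0.06, adjusted p = 3.85e-14). Plat, the tissue plasminogen activator, differed by 0.80 (SE 0.15, adjusted p = 0.000597), and Ctsl, the protease cathepsin L, by 0.58 (SE 0.05, adjusted p = 9.66e-10). The call of Plat was lost without either array of siRNA #2. That of Ctsl was lost with no trend and with the mean of all its probe sets (0.34, limma adjusted p = 0.137). F3, tissue factor, which starts blood clotting and is a YAP target, read 7.67 and 7.39 against 8.91 and 8.71 (1.28, SE 0.12, adjusted p = 1.56e-09). Of 29 YAP and TEAD targets 4 were higher (13.8% beside 2.69% of all genes) and none lower, with a median of -0.01. Fewer were higher without replicate 1 of siRNA #1 or either array of siRNA #2. Ccn2 (-0.03) and Ankrd1 (0.25) did not pass.

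Of 31 genes of the actin cytoskeleton under the factor SRF, 9 were higher and 3 lower, falling to 1 and 1 with no trend and to 5 and 1 without replicate 2 of siRNA #2. The 9 and 3 made up 29% and 9.68% of the list, beside 2.69% and 6.04% of all genes. Fhl2, a LIM domain cofactor, read 8.12 and 8.02 against 8.88 and 8.93 (0.83, SE 0.11, adjusted p = 9.68e-07). Myl9, a light chain of smooth muscle myosin, was lower with siRNA #2, at 8.57 and 8.19 against 7.60 and 7.73 (-0.72, SE 0.13, adjusted p = 0.000174). Vim, vimentin, differed by 0.54 (SE 0.06, adjusted p = 1.11e-08), while Tagln, transgelin, overlapped (-0.10, SE 0.07). Of 32 integrins, laminins and basement membrane genes, 8 were higher (25% beside 2.69% of all genes) and 3 lower (9.38% beside 6.04%). With no trend none was called, and 3 or 4 were higher without replicate 1 of siRNA #1 or either array of siRNA #2. The paired type IV collagen chains Col4a1 and Col4a2 differed by 0.65 (SE 0.09) and 0.86 (SE 0.11), and Nid2, which cross-links the basement membrane, by -0.52 (SE 0.07).

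The primed epiblast is the pluripotent tissue after implantation. Of 29 measured genes 12 were lower with siRNA #2 (41.4%), 3 were higher (10.3%) and 14 did not pass. Of all genes 6.04% were lower and 2.69% higher, and the list median was -0.21 against -0.03 for all genes. With no trend 5 were lower and 1 higher, and without replicate 1 of siRNA #1 there were 9 and 2. The higher members were Krt18, Cldn6 and Cdh2, N-cadherin (0.34, SE 0.08), of which Krt18 and Cldn6 also stand among the epithelial genes. The call of Cdh2 was lost with no trend, and without replicate 1 of siRNA #1 (adjusted p = 0.17 with the spread of 5 arrays) or either array of siRNA #2 (0.143 and 0.211). Fibroblast markers had a median of -0.02, with 2 of 12 lower, and the log2 of their summed signal was 9.81 and 9.69 with siRNA #1 and 9.55 and 9.55 with siRNA #2. Their part in the result was not tested.

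Otx2, a homeobox factor that drives the move from the naive to the primed state, read 10.73 and 10.74 with siRNA #1, 9.34 and 9.38 with siRNA #2 and 9.56 and 9.57 in the control arrays. The difference was -1.37 (SE 0.08, adjusted p = 3.09e-15), a 2.59-fold lower level with siRNA #2. The control arrays lay between the siRNAs, nearer to siRNA #2. Fgf5, a growth factor used as the marker of this tissue, read 7.54 and 7.41 against 6.51 and 6.42 (-1.01, SE 0.15, adjusted p = 1.16e-05). For Fgf5 the control arrays, at 4.58 and 4.17, lay below both siRNAs.

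Sall2, a zinc finger factor, read 8.78 and 8.78 against 7.95 and 7.85 (-0.88, SE 0.11, adjusted p = 5.19e-07). Zic2 read 8.26 and 8.18 against 7.49 and 7.38, with control arrays at 7.55 and 7.45 (-0.78, SE 0.12, adjusted p = 3.38e-05), and its relative Zic5 differed by -0.69 (SE 0.09). The siRNA #2 level of Zic2 was thus that of the control arrays. Dnmt3a, the de novo DNA methyltransferase, read 10.15 and 9.99 against 9.38 and 9.39 (-0.68, SE 0.08, adjusted p = 4.26e-07), and its 4 other probe sets pointed the same way, although the call was lost with no trend. Dnmt3b (0.04, SE 0.05) did not pass. Pou3f1, also called Oct6, differed by -0.49 (SE 0.07, adjusted p = 3.41e-06), and Foxd3 by -0.21 (SE 0.10, adjusted p = 0.211).

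Nodal is a TGF-beta family ligand that keeps the epiblast pluripotent and induces its own inhibitors, the Lefty proteins. Of 28 measured genes of the pathway 8 were lower (28.6% beside 6.04% of all genes), none was higher, and the median was 0.09. The called members were thus not typical of the list. With no trend the count fell to 1, after quantile normalization to 5 lower and 1 higher, and without replicate 1 or 2 of siRNA #2 to 4 and 5. Among inhibitors, Lefty2 read 7.95 and 7.68 with siRNA #1 and 6.92 and 6.58 with siRNA #2, and control arrays gave 9.34 and 9.49 (-1.06, SE 0.15, adjusted p = 4.44e-06). Its neighbour Lefty1 read 10.92 and 10.75 against 9.92 and 9.88, with control arrays at 11.41 and 11.51 (-0.94, SE 0.08, adjusted p = 3.59e-11). The call of Lefty2 was lost with no trend. In both the groups were in the same order, with control highest and siRNA #2 lowest, and no overlap. Among ligands, Nodal itself read 11.52 and 11.59 against 11.10 and 11.25 (-0.38, SE 0.06, adjusted p = 0.000100), and Gdf3 11.54 and 11.53 against 10.96 and 11.14 (-0.49, SE 0.07, adjusted p = 3.33e-06). The siRNA #2 arrays of both ligands lay near their control levels of 11.14 and 11.10 and of 11 and 10.96. Inhbb, a subunit of activin, differed by -0.36 (SE 0.10). Of receptors and cofactors, Acvr2b differed by -0.38 (SE 0.12), Tdgf1, the co-receptor Cripto, by -0.17 (SE 0.05) and Foxh1, the DNA-binding partner of the Smads, by -0.57 (SE 0.11, adjusted p = 0.000870), a call lost without replicate 1 of siRNA #2. Smad2 (0.01), Smad3 (0.17) and Smad4 (0.10) did not pass.

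Signalling by FGF and ERK held 7 genes higher and 7 lower of 33, 21.2% each, beside 2.69% and 6.04% of all genes. These counts fell to 1 and 1 with no trend, and they also fell without replicate 1 of siRNA #2. The ligands Fgf4 (-0.37, SE 0.08), Fgf15 (-0.42, SE 0.12) and Fgf17 (-0.49, SE 0.14) were lower beside Fgf5. Higher were Dusp5, a phosphatase that acts on ERK (0.69, SE 0.09, adjusted p = 2.97e-06), Ier3 (0.61, SE 0.09) and Junb, a subunit of AP-1 (0.58, SE 0.10), whose call was lost without replicate 2 of siRNA #2. Spry2 (0.08), Spry4 (0.04) and Dusp6 (0.06), feedback inhibitors of the pathway, did not pass. Of 39 measured genes of the Wnt pathway 2 were higher and 5 lower, 5.13% and 12.8% beside 2.69% and 6.04% of all genes, with a median of 0.00. With no trend none was higher and 1 lower, and with an array left out and the spread of the 5 remaining ones 1 to 4 were higher and 2 to 7 lower, most without replicate 2 of siRNA #1. Among its ligands Wnt5a read 8.22 and 8.22 with siRNA #1 and 7.24 and 7.12 with siRNA #2 (-1.04, SE 0.13, adjusted p = 4.23e-07), whereas Wnt4 read 8.98 and 8.80 against 9.56 and 9.61 (0.69, SE 0.09, adjusted p = 2.07e-06), a call lost with no trend. Both had been lower in the control arrays, at 6.08 and 6.31 for Wnt5a and 6.32 and 6.20 for Wnt4.

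Other genes with large negative differences shared no list. Aspa, which splits N-acetylaspartate, read 6.92 and 6.69 with siRNA #1, 5.17 and 5.31 with siRNA #2 and 5.01 and 5.26 in the control arrays (-1.56, SE 0.17, adjusted p = 6.25e-08). The siRNA #2 and control arrays overlapped, so that siRNA #1 alone stood out. Stc2, a secreted glycoprotein induced by stress, read 7.61 and 7.41 against 6.47 and 6.45, with control arrays at 6.28 and 6.34 (-1.05, SE 0.15, adjusted p = 5.53e-06). Hint3, a nucleotide hydrolase, showed another order, at 8.47 and 8.27 against 7.36 and 7.16, with control arrays at 8.33 and 8.31 (-1.11, SE 0.13, adjusted p = 1.33e-07). For Hint3 it was siRNA #2 that stood apart from the control arrays. Cd59a, which protects cells from complement, read 9.34 and 9.24 against 8.01 and 8.10 (-1.24, SE 0.10, adjusted p = 5.98e-11).

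The meiosis genes Syce3 (-1.16, SE 0.17) and Rec114 (-1.07, SE 0.17) were also lower. Pla2g4a, a phospholipase that releases arachidonic acid, differed by -1.15 (SE 0.16), Siglecf, a sialic acid receptor, by -1.20 (SE 0.20) and Them5 by -1.05 (SE 0.18), and with no trend the calls of Rec114, Siglecf and Them5 were lost. Ryr3, a calcium release channel (-1.39, SE 0.18), and Zfpm2, a GATA cofactor (-1.10, SE 0.18), rested on the choice of probe set. With the probe set brightest over all 6 arrays they read 0.21 and 0.17.

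Core pluripotency factors were lower in most members but by small amounts. Of 31 genes 20 were lower (64.5% beside 6.04% of all genes), 1 was higher (3.23% beside 2.69%) and 10 did not pass. The list median was -0.22. The count depended on the setting, with 0 called under no trend, 12 lower after quantile normalization, 8 lower for the mean of all probe sets and 11, 8 and 10 lower without replicate 1 of siRNA #1 or replicate 1 or 2 of siRNA #2. All 31 were above the array medians in all 4 arrays, and the median of all genes was negative in the 2 brightest of the 4 signal bins. Prdm14, which guards the naive state, read 8.28 and 7.92 against 7.39 and 7.54, with control arrays at 9.08 and 9.22 (-0.63, SE 0.13, adjusted p = 0.00150). Esrrb read 10.02 and 9.91 against 9.47 and 9.50 (-0.48, SE 0.08, adjusted p = 0.000122), and Tcl1, a cofactor of Akt, 8.89 and 8.58 against 8.27 and 8.28 (-0.45, SE 0.11, adjusted p = 0.00717). In these 3 genes control was highest and siRNA #2 lowest. Nanog differed by -0.27 (SE 0.06, adjusted p = 0.00341), Pou5f1 by -0.23 (SE 0.05, adjusted p = 0.00436) and Zfp42 by -0.18 (SE 0.05, adjusted p = 0.0193). The calls of Pou5f1 and Zfp42 were lost after quantile normalization (limma adjusted p = 0.0505 and 0.0551). With the mean of all probe sets those of Pou5f1, Zfp42 and Esrrb were lost (limma adjusted p = 0.0535, 0.0557 and 0.0793). Without replicate 1 of siRNA #1 the difference was -0.15 for Pou5f1 and -0.30 for Tcl1, smaller than with all 4 arrays. Sox2 (-0.14, SE 0.05, adjusted p = 0.102) did not pass, but passed in some settings, as after centring on array medians (adjusted p = 0.0183). Klf5, also active in trophectoderm, was the member that was higher (0.20, SE 0.06).

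Germline genes, with a median of -0.27, held 7 lower (22.6%) and 1 higher (3.23%) of 31, beside 6.04% and 2.69% of all genes. With no trend 1 was lower. More were lower without replicate 2 of siRNA #1, and fewer without any of the other Ncl siRNA arrays. Tdrd12, of the piRNA pathway, read 8.40 and 8.07 with siRNA #1, 7.27 and 7.26 with siRNA #2 and 8.48 and 8.50 in the control arrays (-0.96, SE 0.13, adjusted p = 2.82e-06). Its siRNA #1 arrays were thus close to control and its siRNA #2 arrays were not. Gtsf1 (-0.68, SE 0.17) and Piwil2 (-0.63, SE 0.14), of the same pathway, were lower as well, but these calls were lost when replicate 1 of siRNA #1 was left out, and also when replicate 2 of siRNA #2 was, while Dazl (-0.10) and Ddx4 (-0.23) did not pass.

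Target genes of p53 were split. Of 37 measured, 4 were higher (10.8%) and 7 lower (18.9%), beside 2.69% and 6.04% of all genes. The list median was -0.07, and with no trend none was called. Trp73, a relative of p53, read 8.55 and 8.33 against 7.75 and 7.71 (-0.71, SE 0.12, adjusted p = 7.86e-05), and Plk3, a stress kinase, 8.88 and 8.76 against 9.31 and 9.37 (0.52, SE 0.09, adjusted p = 0.000244), a call lost without replicate 2 of siRNA #2. Mdm2, which degrades p53, differed by 0.09 (SE 0.05, adjusted p = 0.299). The 95% confidence interval of the difference in Cdkn1a ran from -0.08 to 0.17. With each array left out the p53 counts ran from 1 to 4 higher and from 2 to 8 lower.

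Genes of ribosome production and mitochondria differed by small amounts. Among 79 nucleolar and ribosome assembly genes 6 were lower (7.59%) and none higher (median -0.10). Of 46 cytosolic ribosomal proteins 1 was lower (median -0.03) and of 41 translation initiation genes none was called (median -0.05). Mitochondrial ribosomal proteins had 17 of 76 lower (22.4%) with a median of -0.17, and oxidative phosphorylation 13 of 63 (20.6%) with a median of -0.11. Of all genes 6.04% were lower, a share below that of bright genes. All 76 mitochondrial ribosomal proteins and 62 of the 63 oxidative phosphorylation genes lay above the median signal in all 4 arrays. The median of all genes in the 2 brightest of the 4 signal bins was -0.13 and -0.08. In both mitochondrial lists none was called with no trend, and without replicate 1 of siRNA #1 the counts were 3 and 2, while without replicate 2 of siRNA #1 they were 47 and 34, and for ribosome biogenesis 1 and 29. Mrps17, a protein of the small subunit, read 10.66 and 10.62 against 10.27 and 10.28 (-0.37, SE 0.07, adjusted p = 0.000676). Ndufs4, a subunit of complex I, differed by -0.34 (SE 0.07, adjusted p = 0.00154). Interferon and RNA-sensing genes, which double-stranded RNA can induce, had 6 of 39 lower and none higher, with a median of -0.06, and 0 to 9 lower with each array left out. Gbp2 differed by -0.50 (SE 0.11, adjusted p = 0.00394) and Gbp3 by -0.59 (SE 0.16, adjusted p = 0.0128), both lost without replicate 1 of siRNA #1 or either array of siRNA #2. Of the interferon list 15.4% was lower, beside 6.04% of all genes. Ago2, the slicer through which siRNAs act, did not differ past the threshold (-0.03, SE 0.08, adjusted p = 0.842).

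**Figure D4:**
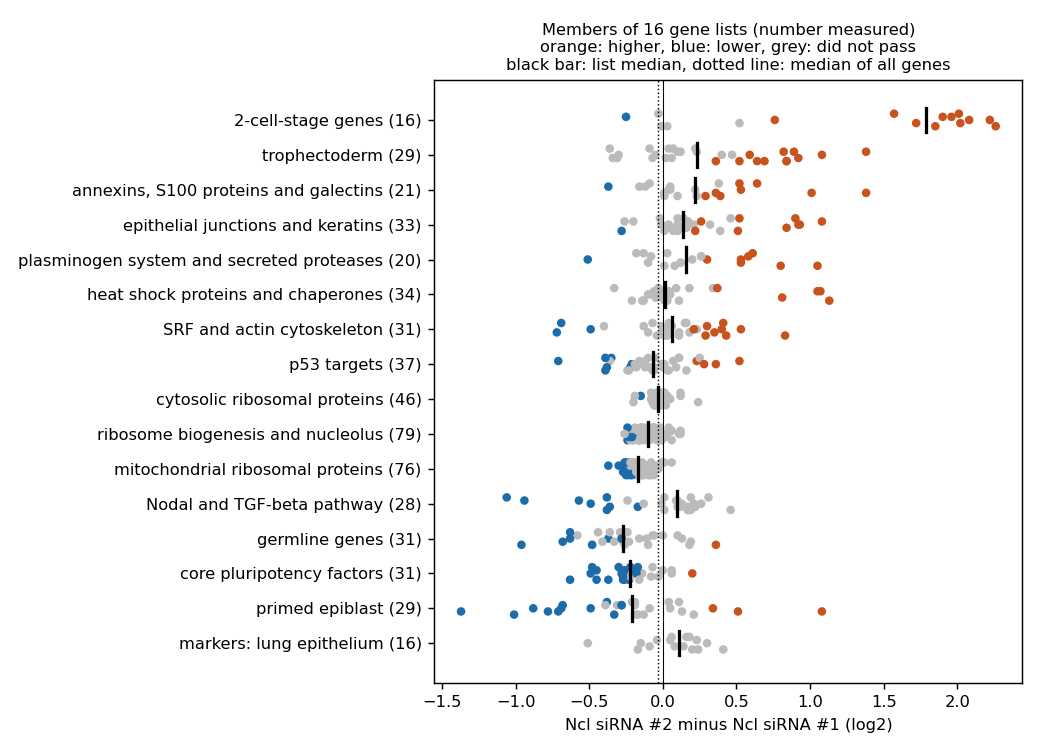
Difference between Ncl siRNA #2 and Ncl siRNA #1 (log2, horizontal axis) for each measured member of 16 gene lists, coloured by call, with the list median as a black bar and the median of all genes (-0.03) as a dotted line. The 2-cell list has the highest median (1.78), the germline list the lowest (-0.27), and no lung marker is called.

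**Figure D5:**
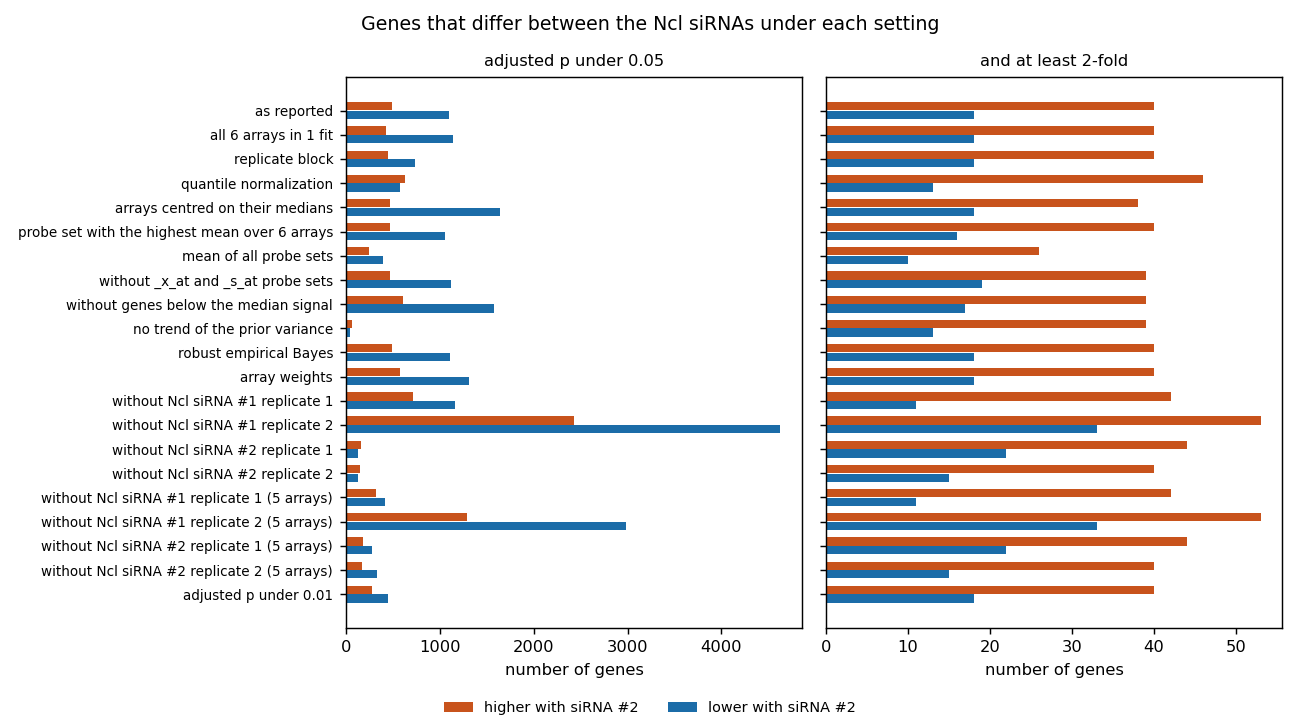
Number of genes called higher (orange) and lower (blue) with Ncl siRNA #2 under each setting, at an adjusted p under 0.05 (left) and also at least 2-fold (right). Counts on the left run from 45 to 4628 per direction, those on the right from 10 to 53.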

How the data were processed

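RNA of 6 samples was hybridised to Affymetrix mouse arrays of 45101 probe sets. The deposited values are log2 signals per probe set (2.47 to 15.34) made by the authors, and the normalization behind them is not given in the sources used here. Gene names came from the platform annotation, in which 34958 probe sets have 1 symbol, 932 several and 9211 none, and no symbol was changed through its gene identifier. Each gene was read from its probe set with the highest mean over the 4 Ncl siRNA arrays, a choice that can change a gene's value where its probe sets disagree. Log2 differences were tested with limma 3.58.1 in R 4.3.3 on these 4 arrays (empirical Bayes with a trend of the prior variance, Benjamini-Hochberg adjustment, threshold 0.05). This left 2 residual degrees of freedom for each gene. The prior variance, taken from all genes, carried 31 degrees of freedom, or 4.2 with no trend. Control arrays were fitted only for the values given against control.

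The comparison, the gene lists and the rules were chosen with earlier results of these data known. Named genes were a fixed set, the 15 largest called differences in each direction without overlap (2 higher and 1 lower passed over for provisional symbols), up to 4 called members of each list and members that complete a family. B2m and the genes called in opposite directions against control were added after their values were seen. In 10 simulated data sets of 18194 genes the fit called 31 to 47 of 67 genes changed by 0.5 on the log2 scale. It called 64 to 67 of 67 changed by 1 and 66 of 66 changed by 2, with 1 to 12 false calls. The simulated arrays were drawn independently with the fitted spread of each gene and no shift of a whole array. These counts therefore do not cover differences between whole arrays such as those seen here. Alternatives covered normalization, probe set choice, filters, the variance model, the replicate block and left-out arrays. The fits that left out an array and took the spread from the 5 remaining arrays were chosen after seeing the data. Replicate numbers are shared by the groups, but same-numbered arrays did not deviate together (r of 0.01 between the Ncl siRNAs), so the numbers were not used to pair them.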

Additional observations from a re-analysis of the deposited data

Results flagged for a closer look

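Otx2 differed in sign between the siRNAs when each was set against the control arrays, and the difference between the siRNAs, -1.37, passed the test in the fit of the 4 arrays (limma, adjusted p = 3.09e-15). Against control it was 1.17 higher with siRNA #1 (adjusted p = 1.04e-11) and lower with siRNA #2 (-0.20, adjusted p = 0.0257). Uba1y, a Y-linked gene of the ubiquitin pathway, read 7.45 and 7.29 with siRNA #1 and 6.23 and 6.28 with siRNA #2, with control arrays at 6.83 and 6.92, and its difference was -1.11 (limma, adjusted p = 3.52e-06). Dnmt3a differed by -0.68, with 0.32 against control for siRNA #1 and -0.37 for siRNA #2. In all, 11 genes were called on opposite sides of control, 9 of them with siRNA #1 higher, while B2m and Fth1, the heavy chain of ferritin, had siRNA #2 higher. Both contrasts use the same control arrays, which hold the lung transcripts.

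Probe sets with no gene symbol stood outside the comparison of genes. Of 9211 such probe sets 38 were higher with siRNA #2 (0.413%) and 37 lower (0.402%). The largest difference, 1.78 (SE 0.12, adjusted p = 5.06e-08), was that of a probe set that read 7.31 and 7.14 with siRNA #1 and 8.96 and 9.05 with siRNA #2, with control arrays at 5.78 and 5.92. Its arrays did not overlap between groups.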

How the results depend on the processing

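With 2 arrays per siRNA, differences under 0.5 on the log2 scale were called or not depending on the setting, and those of at least 2-fold mostly stood. Ranges with an array left out come here from fits of the remaining Ncl siRNA arrays alone, unless the 5 remaining arrays are named. The 1589 calls became 650 with the mean of all probe sets, 112 with no trend, 722 at an adjusted p under 0.01 and 283 to 7058 with an array left out. The 490 higher calls became 251, 67, 275 and 152 to 2430 in the same order, and the 1099 lower calls 399, 45, 447 and 126 to 4628, or 574 after quantile normalization. Counts of at least 2-fold, taken anew over all genes in each setting, went from 58 to 36 with the mean of all probe sets. The higher ones went from 40 to 26 and the lower ones from 18 to 10. The count of lower ones was 11 to 33 with an array left out. With the mean of all probe sets, 53 of the 58 genes were still called, at any size of difference. Calls of list members, 299 in all, became 153, 39, 157 and 93 to 734, and those of the 187 named genes 120 with the mean of all probe sets, 48 with no trend and 87 to 189 with an array left out. With the spread of the 5 remaining arrays, leaving out replicate 1 of siRNA #1, its replicate 2, replicate 1 of siRNA #2 and its replicate 2 gave, in turn, 737, 4281, 463 and 503 calls, of which 324, 1294, 182 and 175 were higher and 413, 2987, 281 and 328 lower. List members gave 157, 542, 120 and 140, and named genes 121, 106 and 109 without the first, the third and the fourth of these arrays. On 2 Ncl probe sets the difference ran from -0.26 to -0.04 and from 0.05 to 0.22 with an array left out, and -0.26 and 0.22, without replicate 2 of siRNA #1, passed. The sign reversed for Ryr3 (0.21), Zfpm2 (0.17) and Mapt (-0.21) with the probe set brightest over 6 arrays, for Pramel6 (0.33) without _x_at and _s_at probe sets, and for Ebna1bp2 (0.02) and Mrpl58 (0.01) with the mean of all probe sets. The replicate block gave 1190 calls (453 higher, 737 lower), 1120 of them shared with the 1589, and all 58 of at least 2-fold. Under all 15 alternatives listed at the start that hold them, 83 genes stayed called, 55 higher and 28 lower. Beyond what the construction of a setting shows, the cause was not tested.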

Other observations

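Cell cycle genes of G1 included several that were lower with siRNA #2. Of 24 G1 cyclins, kinases and inhibitors 5 were lower (20.8%) and 1 higher (4.17%), beside 6.04% and 2.69% of all genes. The list median was -0.10, and all 24 lay above the median signal in all 4 arrays. None was called with no trend of the prior variance. Left-out arrays gave 2 (without replicate 1 of siRNA #2) to 9 (without replicate 2 of siRNA #1) lower. Ccnd2, cyclin D2, read 10.81 and 10.71 with siRNA #1 and 10.22 and 10.25 with siRNA #2 (-0.52, SE 0.07), and Ccnd1 11.64 and 11.63 against 11.27 and 11.26 (-0.37, SE 0.06). Their kinases Cdk6 (-0.55, SE 0.11) and Cdk4 (-0.28, SE 0.06) were lower too. Of the pocket proteins Rb1 was higher at 10.41 and 10.57 against 10.88 and 10.94 (0.42, SE 0.07), but differed by 0.03 with the mean of all its probe sets, and Rbl2 was lower (-0.61, SE 0.14). Cyclins Ccne1 (-0.01) and Ccne2 (-0.02) did not pass.

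Among 18 snoRNA hosts and abundant noncoding RNAs 2 were higher (11.1%) and 3 lower (16.7%), beside 2.69% and 6.04% of all genes. The list median was -0.10. With no trend 1 was higher and none lower, and left-out arrays, with the spread of the 5 remaining ones, gave 1 to 3 higher and 0 to 4 lower. Malat1, an abundant nuclear RNA of speckles, read 11.75 and 11.74 with siRNA #1 and 12.66 and 13 with siRNA #2 (1.09, SE 0.07, limma adjusted p = 9.69e-14), and stayed called under all 15 alternatives. Neat1, the RNA that builds paraspeckles, differed by 0.33 (SE 0.08), or by 0.13 (adjusted p = 0.377 in limma) without replicate 1 of siRNA #1.

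Among 27 imprinted genes 3 were higher (11.1% beside 2.69% of all genes) and none lower, with a median of 0.02. With no trend, centring on array medians, the replicate block or either array of siRNA #2 left out, 1 was higher. The growth factor Igf2 read 11.84 and 11.79 against 12.53 and 12.54 (0.72, SE 0.06) and stayed called under all 15 alternatives. Peg3 (0.24, SE 0.07) and Grb10 (0.21, SE 0.06) lost their calls with no trend, with the block and without either array of siRNA #2.

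Of 40 lysosomal genes 6 were higher (15%) and 1 lower (2.5%), beside 2.69% and 6.04% of all genes, with a median of 0.04. With no trend none was called, and left-out arrays gave 3 to 6 higher and 0 to 6 lower. The higher ones included the cathepsin Ctsd (0.34, SE 0.06) and the autophagy receptor Sqstm1 (0.40, SE 0.07). In redox defence 2 of 34 were higher and 7 lower (20.6% beside 6.04% of all genes), or 2 and 3 after quantile normalization. Of the 34, 32 lay above the median signal in all 4 arrays. With no trend none was called, and 1 (without replicate 1 of siRNA #2) to 12 (without replicate 2 of siRNA #1) were lower with an array left out. Gsto1, a glutathione transferase, read 11.95 and 11.87 against 12.52 and 12.57 (0.64, SE 0.06), a call lost with no trend. Gstm2 (-0.61, SE 0.16) and Gsta3 (-0.57, SE 0.16), of other classes of the same enzymes, lost their calls without replicate 1 of siRNA #1 or either array of siRNA #2, with the spread of the 5 remaining arrays, and Gsta3 then differed by -0.27 to -0.61.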
